A study of Mus musculus with 22 samples.

Results

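The sites described here are 250 regions of the mouse genome at which p300 and NFAT1 peaks were both listed in wild-type regulatory T (Treg) cells and neither was listed in IkE5-deficient Treg cells. They were chosen from the peak lists themselves. The 4 p300 lists were merged into 18546 regions, and 1045 of these had a peak in both wild-type (WT) libraries and in neither IkE5 library, a share of 5.63% of all p300 regions. The 4 NFAT1 lists were merged in the same way into 11087 regions, of which 2152 (19.4%) had this WT only pattern. The 250 sites are the WT only p300 regions that overlap a WT only NFAT1 region by at least 1 bp. They are called lost sites below. The absence of p300 and NFAT1 in the IkE5 libraries is therefore how the sites were picked and not a result. The results below concern Foxp3, Ikaros, H3K27ac and the position of the sites, which the choice did not use directly. How far picking sites for WT only peaks by itself moves Foxp3 and H3K27ac was not tested. Regions picked for the opposite pattern differed in the opposite direction, as given under Other observations.

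The study profiled primary Treg cells from mouse spleen and lymph nodes of 2 genotypes, WT and IkE5-deficient, by chromatin immunoprecipitation with sequencing. Its title concerns Ikzf1, the gene that encodes Ikaros, and its partnership with Foxp3. The cells of both genotypes were given a cell stimulation cocktail in culture for 1 h and were then fixed with 1% formaldehyde, for 30 min before transcription factor ChIP and for 5 min before histone ChIP. Of 22 samples, 18 had a peak list: 2 WT and 2 IkE5 libraries each for p300, NFAT1, Foxp3 and H3K27ac, and 2 WT libraries for Ikaros. The change that the IkE5 allele carries, the age and sex of the mice, and whether libraries of 1 group are from different mice, are not given in the sources used here, so p-values below measure only the spread between libraries. A share of sites with a peak is an average over many cells, and fewer cells with a bound site cannot be told apart from less binding in each cell.

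p300 is a histone acetyltransferase that transcription factors recruit to active enhancers and promoters, where it acetylates histone H3 at lysine 27, the modification read as H3K27ac. NFAT1, encoded by Nfatc2, is held in the cytoplasm of resting T cells and enters the nucleus when T cell receptor signalling raises calcium. Foxp3 defines the Treg lineage and can bind DNA together with NFAT, and Ikaros is a zinc finger factor of lymphocytes that recruits chromatin-remodelling corepressors.

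Of the 250 sites, 32 overlapped the 300 bases around a listed transcription start (250 before to 50 after) in the RefSeq promoter table, build GRCm38.p6, which is the assembly also known as mm10. These held 35 such windows of 34 genes. The 5 printed here are examples, picked as given below, and not a typical sample of them. The core letters of NFAT sites, GGAAA, and of one Ikaros consensus, GGGAA, are in capitals on either strand (printed as TTTCC or as TTCCC where they lie on the other strand), and GGGAAA holds both. The windows of Lck and Mta2 were taken from gene lists. Those of Lamtor2, Pank3 and Rtn3 were added after values were seen, because Foxp3 was also listed in both WT and neither IkE5 library there. Lck (chr4:129558323-129558622, minus strand) encodes the kinase that starts T cell receptor signalling, and Mta2 (chr19:8941670-8941969, plus strand) a subunit of the NuRD corepressor with which Ikaros associates. Lamtor2 (chr3:88552902-88553201, minus strand) belongs to the Ragulator complex that holds mTORC1 on lysosomes, Pank3 (chr11:35769245-35769544, plus strand) starts coenzyme A synthesis, and Rtn3 (chr19:7483242-7483541, minus strand) is a reticulon of the endoplasmic reticulum.
Lck: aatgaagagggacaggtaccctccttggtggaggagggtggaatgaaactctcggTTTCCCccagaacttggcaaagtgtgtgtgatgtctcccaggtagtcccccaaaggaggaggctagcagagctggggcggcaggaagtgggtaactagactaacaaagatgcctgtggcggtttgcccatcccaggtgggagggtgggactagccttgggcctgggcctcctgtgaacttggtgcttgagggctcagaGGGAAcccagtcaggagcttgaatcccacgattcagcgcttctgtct
Mta2: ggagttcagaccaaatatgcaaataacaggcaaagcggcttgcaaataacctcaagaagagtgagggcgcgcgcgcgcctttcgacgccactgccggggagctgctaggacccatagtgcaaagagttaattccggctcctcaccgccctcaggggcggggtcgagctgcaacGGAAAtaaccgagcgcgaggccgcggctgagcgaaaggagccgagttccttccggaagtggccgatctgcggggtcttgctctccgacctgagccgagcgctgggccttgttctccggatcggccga
Lamtor2: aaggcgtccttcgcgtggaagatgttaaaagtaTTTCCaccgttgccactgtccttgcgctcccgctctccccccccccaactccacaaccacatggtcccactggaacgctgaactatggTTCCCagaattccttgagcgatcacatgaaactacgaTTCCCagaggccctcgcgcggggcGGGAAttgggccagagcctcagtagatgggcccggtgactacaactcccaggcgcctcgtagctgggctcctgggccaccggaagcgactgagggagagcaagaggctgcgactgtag
Pank3: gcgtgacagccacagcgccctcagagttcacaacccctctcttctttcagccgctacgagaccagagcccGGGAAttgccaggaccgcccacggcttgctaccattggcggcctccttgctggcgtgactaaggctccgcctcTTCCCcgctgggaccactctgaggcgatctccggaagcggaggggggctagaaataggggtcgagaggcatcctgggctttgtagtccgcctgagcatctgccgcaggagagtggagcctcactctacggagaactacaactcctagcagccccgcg
Rtn3: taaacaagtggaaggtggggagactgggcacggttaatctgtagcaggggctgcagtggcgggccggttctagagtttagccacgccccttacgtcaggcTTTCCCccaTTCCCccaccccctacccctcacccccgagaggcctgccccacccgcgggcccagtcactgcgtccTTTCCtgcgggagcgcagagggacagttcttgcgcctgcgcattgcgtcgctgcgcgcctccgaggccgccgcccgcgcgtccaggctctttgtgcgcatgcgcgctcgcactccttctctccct

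The Lck window held 2 GGGAA and 1 GGAAA, and 183 of its 300 bases lay within the lost site at chr4:129558440-129558976. The Mta2 window held 1 GGAAA and no GGGAA and lay wholly within its site. Lamtor2 held 3 GGGAA and 1 GGAAA, Pank3 2 GGGAA, and Rtn3 2 of each. The Lamtor2 and Pank3 windows lay wholly within their sites, and 214 of the 300 bases of the Rtn3 window lay within its site. Across the 35 windows at lost sites, 29 (82.9%) held GGGAA, against 66.8% of 1816 windows at p300 regions found in both WT libraries and 63.0% of 21263 windows of protein-coding genes. GGAAA was in 26 of the 35 (74.3%), against 67.4% and 59.9%. Among the other letters searched on both strands, GGGCGG (the GC box) was in 68.6%, against 64.8% and 46.2%. CCAAT was in 48.6%, against 39.8% and 38.2%. CCGGAAG (an ETS site) was in 25.7%, against 28.3% and 11.6%, and GCATGCG (part of an NRF1 site) in 17.1%, against 7.38% and 4.44%. TGACG (the core of cyclic AMP response elements) was in 25.7%, against 46.7% and 23.6%. CACGTG (the E-box) was in 14.3%, against 11.8% and 7.84%. TGTGGT (a Runx site) was in 14.3%, against 13.1% and 15.0%, and TAAACA (a forkhead core) in 8.57%, against 8.20% and 11.5%. The letters of AP-1 sites (TGANTCA) and of forkhead sites (TGTTTAC) were in none of the 35, and in 5.51% and 2.86% of the p300 windows. The median GC content was 58.7%, 60% and 56.3% in the same order of sets. These are matches of letters in windows that cover 32 sites, and most of the 250 sites lie outside the windows.

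How near the peaks lay is largely fixed by the choice of sites, and the following values describe it. The p300 and NFAT1 peak centres lay a median of 38.5 bp apart, and 210 of the 250 pairs (84%) lay within 100 bp. Where p300 was kept in all 4 libraries and only NFAT1 was WT only (656 regions), the median was 37 bp with 85.4% within 100 bp. Where both were found in all 4 libraries (1642 regions), it was 22 bp with 94.9%. The overlap of the merged regions had a median of 505.5 bp. Its smallest values were 23 bp, at a site near Mynn, and 304 bp. Of the 795 WT only p300 regions left out, the nearest to a WT only NFAT1 region lay 66 bp away, and 12 lay within 1 kb. No IkE5 peak of either target overlaps a site, as the choice requires. An IkE5 p300 peak was listed within 1 kb of 17 sites (6.8%) and within 5 kb of 57 (22.8%), and an IkE5 NFAT1 peak within 1 kb of 3 (1.2%) and within 5 kb of 24 (9.6%).

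Sites that missed the choice by 1 library numbered from 36 to 460, depending on which list it was. NFAT1 was listed in both WT libraries and 1 IkE5 library at 36 WT only p300 regions, and in 1 WT and no IkE5 library at 269. p300 was listed in both WT and 1 IkE5 library at 460 regions with WT only NFAT1, and in 1 WT and no IkE5 library at 272. NFAT1 was in both WT libraries at 302 of the WT only p300 regions and was WT only at 250 of these (82.8%). At p300 regions found in all 4 libraries it was in both WT libraries at 2994 and WT only at 656 of these (21.9%). These values are part of the choice and are given as a description. By number of peaks, the IkE5 NFAT1 lists (4908 and 3435) were shorter than the WT ones (7825 and 6850), while those of p300 (11670 and 8971 in IkE5, 11457 and 8775 in WT) were of like length. The shorter IkE5 NFAT1 lists move with the choice of sites, and their part in it was not tested.

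The Foxp3 and H3K27ac lists differed more in length between libraries than between genotypes. The WT Foxp3 lists had 20608 and 16526 peaks and those of IkE5 21619 and 17265, the H3K27ac lists 53032 and 35272 (WT) and 47982 and 37152 (IkE5), and the WT Ikaros lists 22297 and 26641. No pair of the 153 pairs of lists shared more than 0.745% of its peaks base for base. Sequencing depth is not known from lists of positions. H3K27ac marked 7 of 7 genes listed for Treg cells in every library, with a summed 206 and 133 kb in WT and 215 and 173 kb in IkE5. These were Foxp3, Il2ra, Ctla4, Tnfrsf18 and Ikzf2, and also Cd3e and Cd4, which other T cells share. Ikzf2 held most of the length, with 137 and 81.5 kb in WT and 149 and 115 kb in IkE5. Among B cell markers, Cd79a had 2.17 and 1.67 kb in WT and 1.07 and 1.20 kb in IkE5, Pax5 had 1.07 and 1.15 kb in WT and 0.833 and 0.671 kb in IkE5, and Ms4a1 was at 0. Myeloid markers had a summed 3.27 and 2.14 kb in WT and 1.72 and 1.82 kb in IkE5 over 2 of 4 genes, with Lyz2 and Csf1r at 0. Of these, Itgam had 2.29 and 1.64 kb in WT and 0.638 and 1.32 kb in IkE5. Cd14 was not lower, with 0.972 and 0.5 kb in WT and 1.08 and 0.5 kb in IkE5. CD8 T and NK cell markers had 1.44 and 2.16 kb over 2 of 4 in WT, and 0.775 and 0.695 kb over 1 of 4 in IkE5, with Klrb1c and Ncr1 at 0. The lower values of Cd79a, Pax5, Itgam and the CD8 T and NK cell markers in IkE5 move with the H3K27ac values given below, and their part in those was not tested.

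Foxp3 was listed at most lost sites in WT cells and at fewer of them in IkE5 cells. A Foxp3 peak overlapped 94% and 59.2% of the 250 sites in WT libraries 1 and 2, and 60% and 48% in IkE5 libraries 1 and 2. WT library 1 stood far above the other 3, and WT library 2 lay just below IkE5 library 1, so the groups overlapped. The mean was 76.6% ± 24.6 (SD, n = 2) in WT and 54% ± 8.49 (SD, n = 2) in IkE5, a difference of -22.6 percentage points (2-sided exact permutation test over libraries, p = 0.667). With 2 libraries against 2 this test cannot give a p below 0.33, so no difference here can pass a threshold of 0.05. Without WT library 1 the difference was -5.2, and without WT library 2 it was -40. At all 6879 p300 regions found in both WT libraries, the same lists gave 96.1% and 66.8% in WT and 89.0% and 67.9% in IkE5, a difference of -3.00 points. The lost sites differed from these by a further -19.6 points (exact permutation p = 0.33, the smallest possible). Relative to the Foxp3 share of all p300 regions, the lost sites had ratios of 1.28 and 1.20 in WT and 0.822 and 0.891 in IkE5, and on that scale the groups did not overlap (difference -0.383, exact permutation p = 0.33).

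The Foxp3 share was also lower in IkE5 where p300 was WT only and no NFAT1 region was present, with a smaller difference. Those 437 regions had 88.3% and 71.2% in WT and 64.3% and 60.9% in IkE5, a difference of -17.2 points, and the lost sites differed from them by -5.44 points (exact permutation p = 0.667). At the 656 regions that kept p300 and had WT only NFAT1, Foxp3 was at 99.4% and 84.0% in WT and 97.7% and 84.9% in IkE5, and the lost sites differed by -22.2 points (exact permutation p = 0.33, the smallest possible). The Foxp3 share was thus lower in IkE5 at both sets chosen for WT only p300, and close between genotypes at the set chosen for WT only NFAT1 with p300 kept.

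Single sites fell into all of the possible patterns. Foxp3 was listed in all 4 libraries at 85 of the 250 sites (34%) and in none at 11. It was WT only at 21 (8.4%), against 1.38% of all p300 regions found in both WT libraries and 6.41% (28 of 437) of the WT only p300 regions with no NFAT1 region. It was IkE5 only at 1 (0.4%), against 0.218%. The other 132 sites were mixed. Of the 147 sites with Foxp3 in both WT libraries, 85 (57.8%) had it in both IkE5 libraries, 41 (27.9%) in 1 and 21 (14.3%) in neither. For the 4511 p300 regions with Foxp3 in both WT libraries these shares were 84.7%, 13.2% and 2.11%. Between libraries with the same number, 88 sites had Foxp3 in WT library 1 and not in IkE5 library 1, and 3 the other way. For libraries numbered 2 these counts were 40 and 12.

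**Figure D1:**
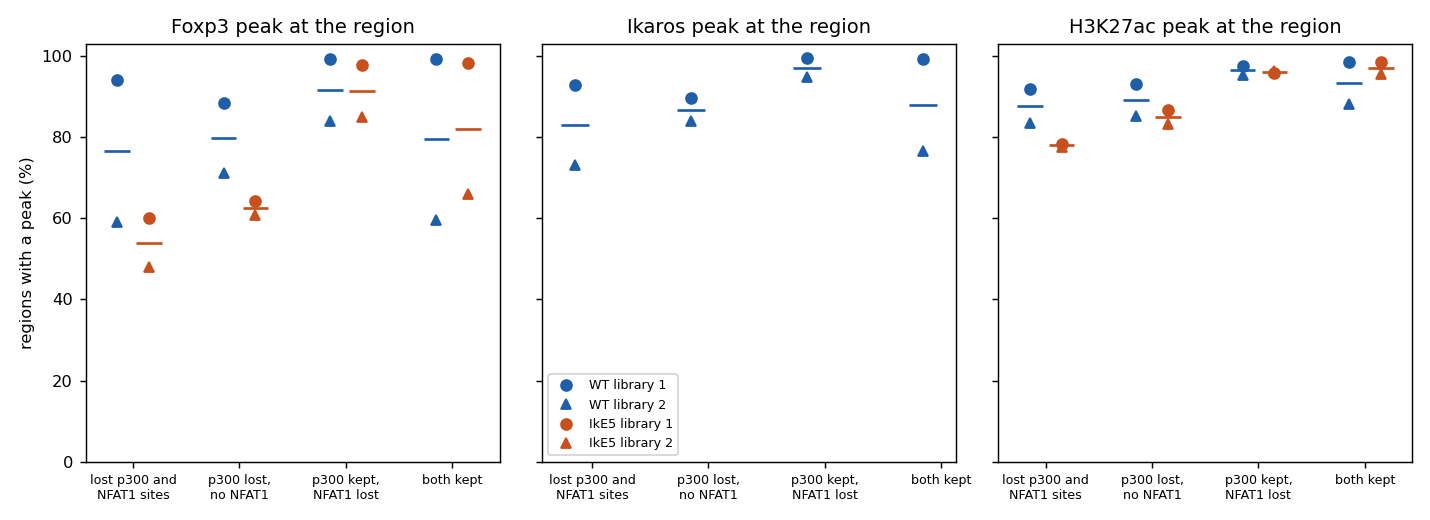
Share of regions (%, vertical axis) that overlap a Foxp3, Ikaros or H3K27ac peak, for the 250 lost sites and 3 other sets of p300 regions; circles are library 1, triangles library 2, bars the mean of the 2 libraries, blue WT and orange IkE5 (Ikaros was profiled in WT only). At the lost sites the 2 IkE5 libraries had H3K27ac at 78.4% and 77.6%, below both WT libraries at 92% and 83.6%, while the Foxp3 values of the groups overlapped.

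Ikaros, profiled in WT cells only, was listed at most lost sites. Its 2 libraries covered 92.8% and 73.2% of them, with 178 sites (71.2%) in both, 59 in 1 and 13 in neither. All p300 regions found in both WT libraries had 97.0% and 82.1%, and the regions that kept p300 and had WT only NFAT1 had 99.5% and 94.8%. The lost sites were thus below both of these sets in each library. The WT only p300 regions with no NFAT1 region had 89.7% and 84.0%, so the lost sites were above them in library 1 and below them in library 2. All merged p300 regions had 76.9% and 65.9%, below the lost sites in each library. Ikaros and Foxp3 peaks were close to the p300 centre, with median distances of 47.75 and 97.5 bp for the Ikaros libraries and 47 and 170.25 bp for the WT Foxp3 libraries. At the 178 sites with Ikaros in both libraries, Foxp3 was at 97.8% and 76.4% in WT and 65.7% and 63.5% in IkE5, and H3K27ac at 93.3% and 89.3% in WT and 78.7% and 83.1% in IkE5. At these sites both WT libraries were above both IkE5 libraries for each mark. They were picked by peaks of WT libraries alone, and how far this sets the order was not tested. The p300 regions found in both WT libraries, with Ikaros in both, had Foxp3 at 97.7% and 79.6% in WT and 91.4% and 80.2% in IkE5. Their H3K27ac was at 97.0% and 92.4% in WT and 94.8% and 94.0% in IkE5, so the genotypes overlapped for each mark. The 13 lost sites with no Ikaros peak had Foxp3 at 8 and 2 sites in WT and 2 and 1 in IkE5, and H3K27ac at 9 and 8 in WT and 9 and 9 in IkE5. At the 59 sites with Ikaros in 1 library the genotypes overlapped for both marks, with Foxp3 at 89.8% and 16.9% in WT and 52.5% and 10.2% in IkE5 and H3K27ac at 93.2% and 71.2% in WT and 79.7% and 62.7% in IkE5.

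H3K27ac remained at most lost sites in IkE5 cells, at a lower share than in WT. It overlapped 92% and 83.6% of the sites in WT and 78.4% and 77.6% in IkE5. Both IkE5 libraries lay below both WT libraries. The means were 87.8% ± 5.94 and 78% ± 0.566 (SD, n = 2 each), a difference of -9.8 points (2-sided exact permutation p = 0.33, the smallest possible). Without WT library 1 the difference was -5.6, and without WT library 2 it was -14. At all p300 regions found in both WT libraries the shares were 96.1% and 87.7% in WT and 93.5% and 90.7% in IkE5, a difference of 0.225 points, and the lost sites differed from these by -10.0 points (exact permutation p = 0.33). Against the regions that kept p300 and had WT only NFAT1 (97.6% and 95.4% in WT, 95.7% and 96.3% in IkE5) the lost sites differed by -9.34 points. Against the WT only p300 regions with no NFAT1 region (93.1% and 85.1% in WT, 86.7% and 83.3% in IkE5) they differed by -5.68 points. Each of these 2 comparisons also gave the smallest possible exact permutation p of 0.33.

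At single sites, the common outcome was that H3K27ac was kept. It was listed in all 4 libraries at 171 sites (68.4%) and in none at 14. It was WT only at 14 (5.6%), against 1.15% of all p300 regions found in both WT libraries and 3.20% (14 of 437) of the WT only p300 regions with no NFAT1 region. It was IkE5 only at 0, against 0.625% of the p300 regions found in both WT libraries. Of the 203 sites with H3K27ac in both WT libraries, 171 (84.2%) had it in both IkE5 libraries, 18 in 1 and 14 in neither. For the 5983 p300 regions with the mark in both WT libraries, 95.0% had it in both IkE5 libraries. Thus most sites without an IkE5 p300 peak were still inside an H3K27ac peak in IkE5 cells.

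The length of H3K27ac peaks around the sites was measured in windows of 5 kb. The mean covered length at the 250 sites was 2641 and 2125 bp in WT and 2030 and 2012 bp in IkE5, or 2383 ± 365 and 2021 ± 13.1 bp (SD, n = 2 each). Both IkE5 libraries were below both WT libraries, with a difference of -362 bp (2-sided exact permutation p = 0.33). Over all p300 regions the 4 values were 2470, 1867, 2333 and 2143 bp, in which the WT libraries lay outside the IkE5 libraries on either side. The WT only p300 regions with no NFAT1 region had 2235 and 1809 bp in WT and 1873 and 1841 bp in IkE5, a difference of -165 bp, and the regions that kept p300 and had WT only NFAT1 had 3050 and 2595 bp in WT and 2625 and 2638 bp in IkE5, a difference of -191 bp (exact permutation p = 1 for each). The lost sites differed from these sets by a further -197 and -171 bp (exact permutation p = 0.33 each, the smallest possible). The difference at the lost sites was -104 bp without WT library 1 and -620 bp without WT library 2, so its size rests on WT library 1. At the centre of the sites, H3K27ac covered 84.4% and 80% of them in WT and 69.6% and 73.2% in IkE5.

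**Figure D2:**
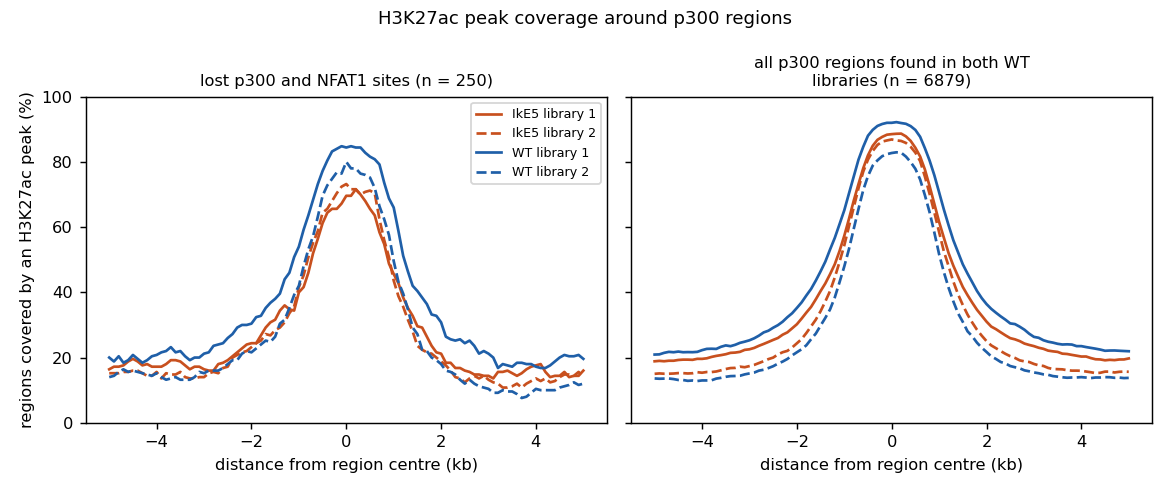
Share of regions covered by an H3K27ac peak (%, vertical axis) against the distance from the region's centre (kb), for the 250 lost sites (left) and all 6879 p300 regions found in both WT libraries (right); each line is 1 library, blue WT, orange IkE5. At the centre of the lost sites both WT lines (84.4% and 80%) lie above both IkE5 lines (69.6% and 73.2%), whereas over all regions the IkE5 lines (88.5% and 86.9%) lie between the WT lines (92.0% and 82.7%).

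A fit across all p300 windows made no call. limma was run on log2(covered bp + 500) over the 16423 windows with a mean of at least 500 bp, and 224 of the 250 sites passed that filter. At an adjusted p under 0.05 it called 0 windows lower and 0 higher (0% each), and the lowest adjusted p was 0.364. At an unadjusted p under 0.05, limma had 33 of the 224 sites lower in IkE5 (14.7%) and 3 higher (1.34%), against 4.8% lower and 4.54% higher of all windows. The log2 difference was below 0 at 154 of the 224 sites (68.8%), against 46.3% of all windows, and its median was -0.12 at the sites and 0.01 over all windows. These counts cover only sites that passed the filter. With no filter, 243 sites were fitted, with 39 lower and 2 higher. The counts turned without WT library 1, when 9 of 214 sites were lower (4.21%) and 18 higher (8.41%), against 1.80% lower and 15.3% higher of all windows.

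**Figure D3:**
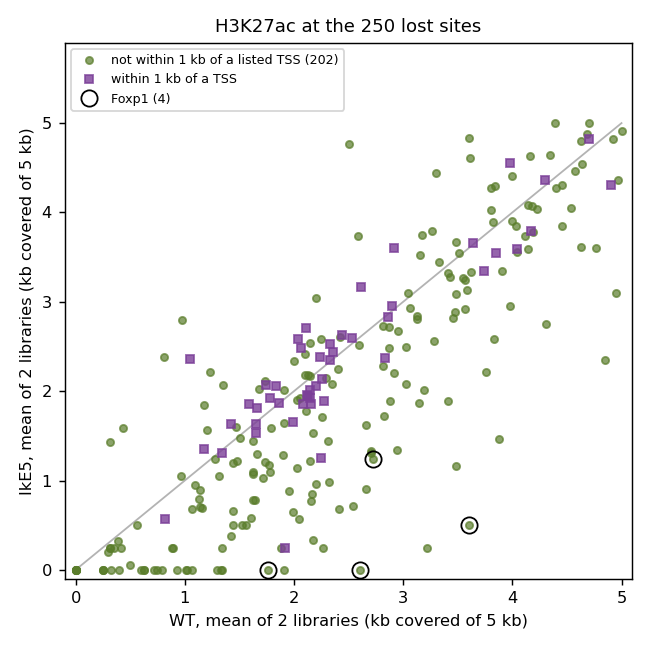
H3K27ac peak length in the 5 kb window (kb) at each of the 250 lost sites, mean of the 2 WT libraries (horizontal axis) against mean of the 2 IkE5 libraries (vertical axis); squares are sites within 1 kb of a listed start site, rings the 4 sites of Foxp1, and the grey line marks equal values. The 4 Foxp1 sites lie below the line, and a row of sites with 0 kb in IkE5 runs along the bottom.

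Most lost sites lay away from start sites, as did most p300 regions found in both WT libraries. The distance to the nearest listed start of a protein-coding gene was computed for 245 sites: 48 (19.6%) lay within 1 kb, 44 between 1 and 10 kb and 153 (62.4%) beyond 10 kb. The promoter table used holds no window for 4395 protein-coding genes, so these distances are upper bounds and some sites counted as distal may lie near an unlisted start. Of the 250 sites, 161 (64.4%) lay inside a gene and 60 (24%) had no protein-coding gene within 10 kb. The p300 regions found in both WT libraries were close to this, with 62.5% inside a gene and 24.6% with no gene within 10 kb. Of those regions with a distance, 60.4% lay beyond 10 kb from a listed start. In the same table the share within 1 kb of a listed start was 37.4% for WT only p300 regions with no NFAT1 region, 29.5% for regions that kept p300 and had WT only NFAT1, and 12.7% for regions that kept both. It was 25.3% for all p300 regions found in both WT libraries, so the lost sites lay between these sets. They were scattered: 24 had another lost site within 100 kb and 4 within 10 kb. Their share of the p300 regions found in both WT libraries ran from 9 of 507 on chromosome 2 (1.78%) to 17 of 277 on chromosome 12 (6.14%).

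Sites near and far from a listed start were compared next. At the 197 sites more than 1 kb from a listed start, here called distal, H3K27ac was at 89.8% and 80.2% in WT and 73.6% and 71.6% in IkE5, a difference of -12.4 points with no overlap between the groups (exact permutation p = 0.33, the smallest possible). At the 48 sites within 1 kb it was at 100% and 95.8% in WT and 97.9% and 100% in IkE5, a difference of 1.04 points (exact permutation p = 1). Shares this close to 100% leave little room for a difference. The covered length, which is not at its limit, was 2618 and 2262 bp in WT and 2409 and 2438 bp in IkE5 at the near sites, where the IkE5 libraries lay between the WT libraries (difference -16.5 bp, exact permutation p = 1). At the distal sites it was 2629 and 2087 bp in WT and 1932 and 1904 bp in IkE5, without overlap (difference -440 bp, exact permutation p = 0.33). Distal minus near was -13.5 points for the share and -424 bp for the length (exact permutation p = 0.33 each, the smallest possible). When sites within 1 kb of either end of a protein-coding gene were also counted as near, a split chosen after seeing the data, 188 distal and 62 near sites resulted. The differences were then -12.5 points and -462 bp at distal sites and -1.61 points and -58.4 bp at near sites. At all distal p300 regions found in both WT libraries the shares were 95.0% and 84.1% in WT and 91.7% and 88.0% in IkE5. Distal WT only p300 regions with no NFAT1 region had 90.6% and 77.7% in WT and 80.8% and 75.1% in IkE5. Their lengths were 2327 and 1765 bp in WT and 1813 and 1774 bp in IkE5. Distal regions that kept p300 and had WT only NFAT1 had 3155 and 2664 bp in WT and 2628 and 2680 bp in IkE5. In both sets the groups overlapped, and near a start the IkE5 lengths lay between the WT lengths. At the lost sites Foxp3 was lower in IkE5 near start sites too, with 93.8% and 85.4% in WT against 79.2% and 72.9% (difference -13.5 points, exact permutation p = 0.33). This was not particular to them: near WT only p300 regions with no NFAT1 region had 87.3% and 91.8% in WT against 72.8% and 79.7% in IkE5. The distal regions of that set had Foxp3 at 88.7% and 59.2% in WT and 59.2% and 49.8% in IkE5. At distal lost sites Foxp3 had 93.9% and 52.3% in WT and 54.3% and 41.6% in IkE5 (difference -25.1 points, exact permutation p = 0.667), where WT library 2 lay just below IkE5 library 1. For Foxp3, distal minus near was -11.6 points (exact permutation p = 1).

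**Figure D4:**
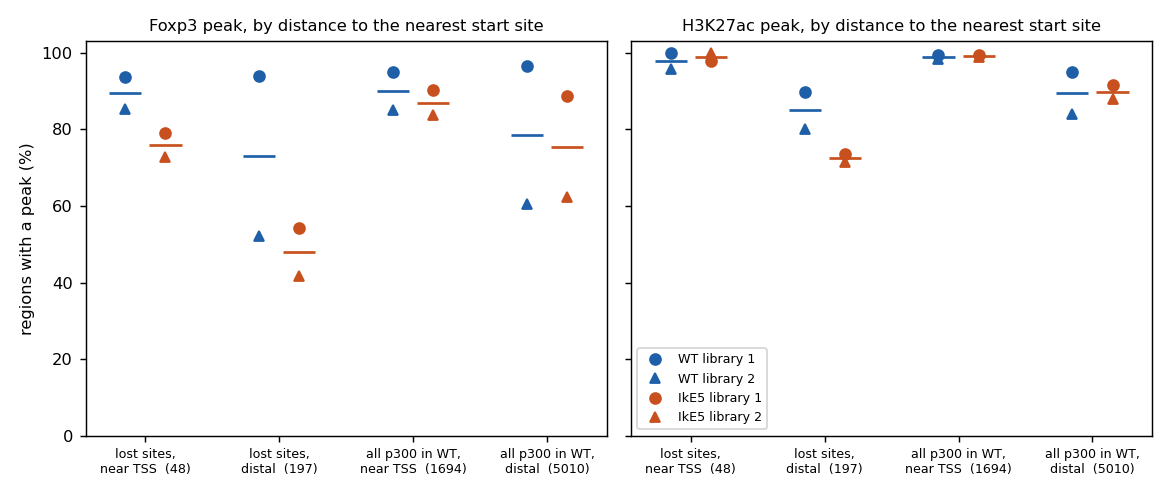
Share of regions with a Foxp3 (left) or H3K27ac (right) peak (%, vertical axis), for lost sites and for all p300 regions found in both WT libraries, each split at 1 kb from a listed start site; circles are library 1, triangles library 2, bars the mean of the 2 libraries, blue WT and orange IkE5. H3K27ac at distal lost sites was at 73.6% and 71.6% in IkE5 against 89.8% and 80.2% in WT, while near start sites all 4 values were at 95.8% or above.

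Sites in all 10 of the other lists made up a smaller share than among p300 regions found in both WT libraries. Foxp3 and H3K27ac in all 4 libraries each and Ikaros in both were found together at 69 of the 250 sites (27.6%), against 50.3% of p300 regions found in both WT libraries. Another 42 sites were in 9 of the lists, and 1 site was in none. Against all 18546 merged p300 regions, the marks taken singly were not lower throughout. Foxp3 was in all 4 libraries at 34.9% of these and H3K27ac at 69.7%, against 34% and 68.4% of the lost sites. Ikaros was in both libraries at 60.4%, against 71.2%. At the 69 sites the presence of a Foxp3 or H3K27ac peak did not separate the genotypes, although the length of H3K27ac could still differ, as at the Serp2 and Ikzf1 sites described below.

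By gene, the sites were spread thinly, with Foxp1 as the exception. Of 5163 protein-coding genes with a p300 region found in both WT libraries in the gene or within 10 kb, 247 (4.78%) had a lost site. In these, 241 genes had 1 site, 5 had 2 (Amz2, Crim1, Eml3, Rtn3 and Strada) and Foxp1 had 4. Genes with 1 site that come next by name are 4933407O12Rik, Abcb1a, Actrt3 and Adam10. Foxp1 had 19 p300 regions found in both WT libraries, of which 5 were WT only and 4 of those were WT only for NFAT1 as well. Of all 6879 such regions, 1045 were WT only and 250 were lost sites. Amz2 had 4 such regions, Strada 3, and Crim1, Eml3 and Rtn3 2 each. A gene with more p300 regions can hold more lost sites, and the counts per gene were not adjusted for this.

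Foxp1 encodes a forkhead repressor that keeps T cells naive and quiescent. In order of coordinate, its lost sites 1 to 4 were chr6:99283166-99283682, chr6:99328191-99328695, chr6:99350443-99350942 and chr6:99441180-99441696. At site 1 H3K27ac covered 2854 and 2587 bp in WT and 500 and 1971 bp in IkE5, and at site 2 it covered 3328 and 1879 bp in WT and 0 bp in both IkE5 libraries. Site 3 had 2024 and 1509 bp in WT and 0 bp in both IkE5 libraries, and site 4 had 3142 and 4072 bp in WT and 0 and 1008 bp in IkE5. At each of the 4 Foxp1 sites both WT libraries were above both IkE5 libraries. The limma log2 differences were -1.03 ± 0.52, -2.59 ± 0.36, -2.17 ± 0.37 and -2.23 ± 0.64 (SE), with adjusted p of 0.664, 0.364, 0.387 and 0.495. None passed. Foxp3 was listed in all 4 libraries at site 1, in library 1 of each genotype at site 2, in WT library 1 and IkE5 library 2 at site 3, and in none at site 4. Ikaros was listed at all 4 sites, in both libraries at 3 of them and in library 1 only at site 2.

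The lists of T cell genes held few lost sites. Of 14 lists, the T cell receptor and calcium signalling genes had 2 of 32 genes with p300 in both WT libraries (Lck and Fyn). The Foxp3 and NFAT partners had 2 of 19 (Rora and Smad3), and the Ikaros family and corepressors 2 of 20 (Ikzf1 and Mta2). The naive and quiescence genes had 1 of 14 (Foxp1), effector cytokines 1 of 9 (Fasl), co-inhibitory genes 1 of 16 (Tox), cell cycle genes 1 of 16 (Ccnd3) and circadian and nuclear receptor genes 1 of 15 (Rora). The Treg signature genes had 0 of 24 and the activation-induced genes 0 of 24. The B cell and housekeeping lists had 0 of 2 each, the myeloid list 0 of 1, and no CD8 T and NK cell gene had such a p300 region. Against the 4.78% of all genes with p300, these are counts of 0 to 2 genes in each list.

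At the sites within 10 kb of the signalling kinases, Foxp3 and H3K27ac peaks were still listed in IkE5, but the H3K27ac length was lower in both IkE5 libraries. At the Lck promoter H3K27ac covered 5000 and 4815 bp in WT and 4326 and 4282 bp in IkE5, both IkE5 libraries lower by a small margin (log2 -0.17 ± 0.03 SE, limma adjusted p = 0.388). Fyn, a second Src family kinase of T cells, had a site inside the gene at chr10:39402453-39402962, with 4272 and 3400 bp in WT and 3009 and 2156 bp in IkE5 (log2 -0.50 ± 0.21 SE, limma adjusted p = 0.607). Foxp3 was listed in all 4 libraries and Ikaros in both at each of these sites. Another lost site, with no gene within 10 kb, had Fyn as its nearest start (231 kb; chr10:39600179-39601175). It had 637 and 0 bp in WT and 2066 and 787 bp in IkE5, and Foxp3 was not listed there in IkE5 library 2. Among the partner genes, Smad3, a transducer of TGF-beta signals, had WT only Foxp3 as well at chr9:63737399-63737922. Its H3K27ac was 5000 and 4840 bp in WT and 4643 and 5000 bp in IkE5, and so the genotypes overlapped. Rora, a nuclear receptor, had 4258 and 1485 bp in WT and 2538 and 2426 bp in IkE5 at chr9:68966345-68966878, also with overlap.

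Ikzf1 itself had a lost site at chr11:11678814-11679331 (-6.85 kb from its start, upstream of the gene). There H3K27ac covered 1447 and 1011 bp in WT and 2222 and 2196 bp in IkE5, both above WT (log2 0.66 ± 0.19 SE, limma adjusted p = 0.494), and Foxp3 was in all 4 libraries. The Mta2 promoter (site chr19:8941533-8942190) had 3299 and 2432 bp in WT and 2943 and 2707 bp in IkE5, with the IkE5 libraries between the WT libraries, and Foxp3 and Ikaros in every library. Fasl, the ligand of the Fas death receptor, had its site outside the gene at chr1:161775022-161775603, with 1621 and 0 bp in WT and 3028 and 1727 bp in IkE5 (log2 1.44 ± 0.86 SE, limma adjusted p = 0.716). Tox, a nuclear factor of exhausted T cells, had 2727 and 1035 bp in WT and 500 and 0 bp in IkE5 at chr4:6945967-6946524 (log2 -1.65 ± 0.61 SE, limma adjusted p = 0.570), with Foxp3 in IkE5 library 1 only. The site within 10 kb of Ccnd3, a G1 cyclin, lay inside Bysl at chr17:47600668-47601296 and had 4279 and 4008 bp in WT and 3550 and 3624 bp in IkE5 (log2 -0.18 ± 0.06 SE, limma adjusted p = 0.528). None of these sites passed the test.

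At 14 sites H3K27ac was WT only, and the 8 with the most negative log2 difference include Foxp1 sites 2 and 3. The others included sites inside Rhobtb1 (chr10:69168397-69168970, 2035 and 1773 bp in WT against 0 in both IkE5 libraries) and Mef2c (chr13:83609214-83609746, 1230 and 1354 bp against 0 in both). The site with Foxn3 as its nearest start (-216 kb; chr12:99665977-99666479) had no gene within 10 kb. It had 3516 and 2914 bp in WT against 0 and 500 bp in IkE5, the last beside the site. The site with Rnf144a as its nearest start (358 kb; chr12:26057479-26058024) also had no gene within 10 kb, with 1181 and 1493 bp against 0 in both. Further ones had Pom121l12 (chr11:14142352-14142892, 2036 and 633 bp against 0 in both) and Gm11677 (chr11:111791916-111792441, 1027 and 987 bp against 0 in both) as the nearest start. Mef2c encodes a MADS-box factor that, like NFAT, responds to calcium. Foxp3 was in all 4 libraries at the Mef2c and Rnf144a sites. Foxp3 too was WT only at the sites nearest Foxn3 and Pom121l12, which were the only 2 of the 250 at which both marks had that pattern.

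Besides these 2, the sites with WT only Foxp3 and the most negative H3K27ac difference lay at Gng12 (chr6:66972175-66972709, 1574 and 1538 bp in WT against 1000 and 0 bp), near St6gal1 (chr16:23374861-23375481, 1445 and 1436 bp against 500 and 500 bp) and nearest to the distant start of Jun (-163 kb; chr4:95214976-95215491, 3603 and 2277 bp against 1535 and 1143 bp). They also lay at Rftn2 (chr1:55215360-55215886, 1963 and 1947 bp against 761 and 997 bp), Sec24c (chr14:20682224-20682760, 3422 and 1990 bp against 1412 and 1251 bp) and Pfdn4 (chr2:170510959-170511587, 2134 and 1338 bp against 1412 and 1006 bp). At all 6 of these sites the mark was still in the window in at least 1 IkE5 library. The sites in the paragraph above were picked for having no H3K27ac peak in IkE5, so the 2 groups are not compared. St6gal1 encodes a sialyltransferase, Jun a subunit of AP-1, and Sec24c a coat protein of vesicles that leave the endoplasmic reticulum.

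The sites with the lowest limma p had lower values in IkE5 in some cases and higher values in others. The lower ones were at Galnt10 (chr11:57668107-57668729), an enzyme of mucin-type glycosylation, with 5000 and 4693 bp in WT and 2217 and 2480 bp in IkE5 (log2 -0.91 ± 0.10 SE, limma adjusted p = 0.364). Gtf2i (chr5:134253222-134253772), which encodes the transcription factor TFII-I, had 2765 and 2313 bp in WT and 777 and 657 bp in IkE5 (log2 -1.32 ± 0.16 SE, limma adjusted p = 0.364). The site nearest Serp2 (chr14:76582323-76582825) had 2650 and 2179 bp in WT against 706 and 654 bp, and Foxp1 site 2 and the Rhobtb1 site followed. The higher ones were at Heg1 (chr16:33751020-33751851), with 2719 and 2285 bp in WT and 4821 and 4707 bp in IkE5 (log2 0.81 ± 0.11 SE, limma adjusted p = 0.364), Ikzf1, the site nearest Atp2b1, Pip4k2a and Asap1. Atp2b1, a calcium pump of the plasma membrane, had 1451 and 1249 bp in WT and 1940 and 2206 bp in IkE5. Asap1 had 1444 and 500 bp in WT and 2128 and 3457 bp in IkE5, and Pip4k2a, a phosphoinositide kinase, 4015 and 3205 bp against 4502 and 4723 bp. At each of these sites the groups did not overlap, and none passed the adjusted threshold.

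**Figure D5:**
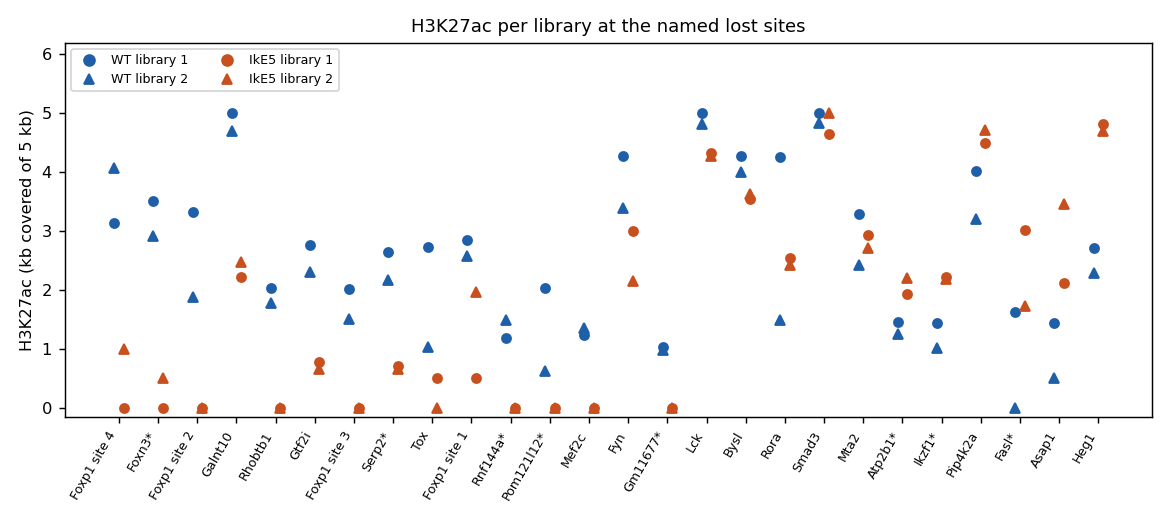
H3K27ac peak length in the 5 kb window (kb, vertical axis) in each library at 26 named lost sites, ordered by the difference of means; circles are library 1, triangles library 2, blue WT and orange IkE5, and an asterisk marks a site outside its named gene. Foxp1 site 4 (3142 and 4072 bp in WT, 0 and 1008 bp in IkE5) stands at one end and Heg1 (2719 and 2285 bp, 4821 and 4707 bp) at the other.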

How the data were processed

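Peaks of p300, NFAT1, Foxp3, Ikaros and H3K27ac in WT and IkE5-deficient Treg cells were taken from 18 deposited lists, 1 per library, which hold positions on mm10 and no score, count or p-value. Factor peaks are 500 bp wide. Per the submitters' processing notes, the authors used FastQC, Bowtie2, MACS2, bedtools and HOMER; their versions, settings, thresholds and use of input are not given in the sources used here. The 4 inputs have no list and were not analysed here, and the depth behind a peak is unknown. The value of 1 B cell marker is not reported here.

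Lists were merged per target where peaks shared at least 1 bp. A site was scored per library as overlapped or not, and libraries were the unit of 2-sided exact permutation tests. Length covered by H3K27ac was fitted with limma 3.58.1 in R 4.3.3, with a pseudocount of 500 bp, a mean filter of 500 bp and Benjamini-Hochberg adjustment. The fit was run on simulated data with large changes and independent noise, which does not measure its power in these libraries. The sites, gene lists and motifs were chosen with earlier results of these data known. Sites are named if they lie within 10 kb of a listed gene, belong to the 10 genes with most sites, had WT only H3K27ac or Foxp3 (up to 8 each), or had the 5 lowest limma p in either direction. Genes and starts are from RefSeq GRCm38.p6. Alternatives were a 250 bp overlap, a 2 kb window, a pseudocount of 100 bp, no filter, scaling, a replicate block, leaving out each library and, added after seeing the data, gene ends counted as starts.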

Additional observations from a re-analysis of the deposited data

How the results depend on the processing

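The lists carry no score, so a stricter peak threshold was not run, and depth was not known. The number of sites depends on the libraries: it was 519 where NFAT1 was required in at least 1 WT library in place of both, and leaving out 1 p300 or NFAT1 library gave 261 to 556. A 250 bp overlap gave 245 sites, 237 of the 250 among them. With these, the Foxp3 difference was -22.2 points, the H3K27ac share difference -12.0 points and the covered length difference -374 bp. A 2 kb window gave -218 bp. Leaving out 1 library, the differences ranged from -40 to -5.2 points for Foxp3, from -14 to -5.6 points for the H3K27ac share and from -620 to -104 bp for covered length. limma made 0 calls under each alternative run. The library numbers pair WT and IkE5 libraries only by number: their H3K27ac deviations correlated at 0.535 over 16423 windows. With the replicate block the differences were again -22.6 points, -9.8 points and -362 bp (exact sign-flip p = 0.5, the smallest possible), and limma with the block made 0 calls.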

Other observations

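The opposite pattern, p300 and NFAT1 in both IkE5 and neither WT library, was found at 134 regions. Foxp3 was listed at 48.5% and 8.21% of these in WT and 95.5% and 37.3% in IkE5, and H3K27ac at 68.7% and 35.8% in WT and 92.5% and 75.4% in IkE5. Ikaros was at 47.8% and 21.6% of them in WT, and 3 lay within 1 kb of a listed start site, against 48 of the lost sites. At the 134 regions IkE5 minus WT was 38.1 points for Foxp3, 31.7 points for H3K27ac and 1284 bp for its covered length. At the lost sites these differences were -22.6 points, -9.8 points and -362 bp. How far the choice of regions sets either group of differences was not tested.

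The lost site with IkE5 only Foxp3 was at Enox2 (chrX:49287300-49287890), where H3K27ac covered 1164 and 1196 bp in WT and 1404 and 1310 bp in IkE5. The lost site at the Dnajb9 promoter (chr12:44209877-44210493) contains the listed hairpin of Mir5627 (chr12:44210313-44210373). Dnajb9, a chaperone of the endoplasmic reticulum, had H3K27ac at 2381 and 1856 bp in WT and 1846 and 2069 bp in IkE5 there, with Foxp3 and Ikaros in every library. These single sites were picked after their values were seen.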
